A study of Mus musculus with 30 samples.

Results

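Broad H3K4me3 domains free of polycomb were 2173 of the 32277 H3K4me3 regions found in mouse embryonic stem cells. An H3K4me3 region was a merged interval that held a peak of both H3K4me3 control lists, from cells without knock-down. A domain was a region of 4000 bp or wider that shared not 1 bp with a peak of EPOP, Suz12, Jarid2 or H3K27me3 in any of the 6 control lists of these targets. Both the width and the absence of these polycomb peaks therefore chose the domains, and both are given here as description. They made up 6.73% of the regions and held 13.3 Mb, or 18.4% of the length that the regions covered. The same rule left 19037 narrower polycomb-free regions, 1092 broad polycomb-bound regions and 9975 narrower polycomb-bound regions for comparison.

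The study profiled chromatin in the mouse embryonic stem cell line E14Tg2A, grown without feeders in serum with LIF, and asked how EPOP links elongin and polycomb. Lentiviral short hairpin RNA was used to deplete EPOP (also C17orf96), and small interfering RNA to deplete Elongin B (EloB). Peak lists of 20 chromatin immunoprecipitation (ChIP-seq) samples were analysed for 6 targets. For H3K4me3 and for Suz12 there were 2 control lists and 1 list for each knock-down. For EPOP and for EloB there were 2 controls and 2 lists of EPOP-depleted cells, and for Jarid2 and for H3K27me3 there was 1 of each kind. Proteins were crosslinked by an extra agent before the EloB ChIPs, and a different antibody was used in each EloB replicate. For EPOP knock-down replicate 1 the description names IgG where the title names the target, and the description of the IgG sample names C17orf96 in turn. The file header of that knock-down list names C17orf96. Both H3K27me3 lists carry IgG beside the target in their file headers. All were used as their titles state, and whether samples were exchanged was not tested. Whether replicates came from separate cultures is not stated in the labels, so p-values measure the spread between these samples alone, which may be technical.

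H3K4me3 is laid down by MLL and SET1 complexes at active and poised promoters, usually in a narrow band around the transcription start site. At some genes the mark extends over many kilobases, and such broad domains are known from other work to lie at genes of cell identity and at highly transcribed genes. In embryonic stem cells a different set of H3K4me3 regions also carries H3K27me3, the mark of Polycomb repressive complex 2 (PRC2), of which Suz12 is a core subunit and Jarid2 and EPOP are accessory subunits. EloB is a subunit of elongin, a factor of transcript elongation that binds EPOP. Coordinates are given in mm9, and no gene is assigned to a region because no annotation of this build was used here.

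Most domains were only moderately broad. Merged widths ran from 4000 to 33848 bp, with a median of 5299 bp and quartiles of 4517 and 6770 bp. Of the 2173 domains, 1411 (64.9%) were below 6000 bp, 148 reached 10000 bp and 12 reached 20000 bp. Broad polycomb-bound regions had a median width of 4957 bp. The threshold cut through a continuous range: the domain just inside it, at chr4:32048950-32052949, measured 4000 bp and a region just outside it, at chr11:49015204-49019201, measured 3998 bp.

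The widest domains kept nearly the same extent in all 4 H3K4me3 lists. Widths in a list were the summed widths of its peaks that touched the domain. The widest, chr12:87806726-87840573, measured 32579 and 33848 bp in the controls, 33807 bp after EPOP depletion and 36688 bp after EloB depletion, as 1 peak in each list. At chr2:32005438-32039248 the values were 31440 and 33638 bp in the controls, 32655 bp after EPOP depletion and 33722 bp after EloB depletion. This domain was split into 7 and 2 peaks in the controls, and into 4 and 2 peaks after depletion of EPOP and EloB. At chr3:41358212-41388767 the 4 widths were 30128, 30553, 30348 and 31303 bp in the same order. At chr13:44823226-44853346 control replicate 1 was the low list, with 25821 bp in 4 peaks, against 30121, 30473 and 30324 bp in 1 peak each. The list of EloB knock-down was the widest or second widest list at each of these 4 domains. None of the 10 widest domains held an EloB peak, or a Suz12, Jarid2 or H3K27me3 peak in a knock-down list.

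**Figure D1:**
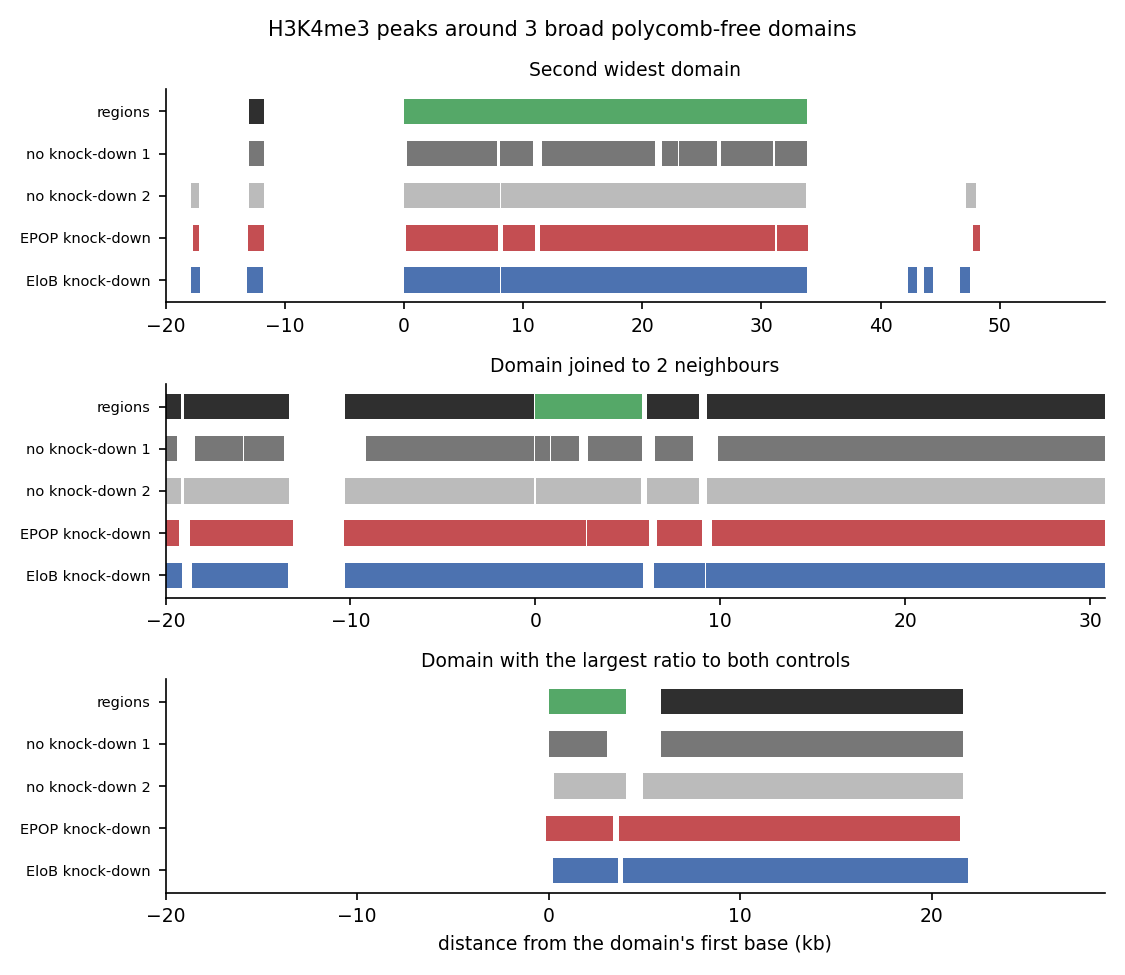
H3K4me3 peaks of the 4 lists around 3 domains, by distance in kb from the domain's first base; the green bar is the domain, black bars are other H3K4me3 regions, and the 4 lower rows are the lists, with the controls named no knock-down 1 and 2. The second widest domain is split into 7, 2, 4 and 2 peaks from top to bottom, and at the other 2 domains knock-down peaks run on into neighbouring regions.

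H3K4me3 was still called at nearly every domain after either knock-down. After EPOP depletion 2171 of 2173 domains (99.9%, Wilson 95% interval 99.7% to 99.97%) held an H3K4me3 peak, against 96.1% of all H3K4me3 regions. After EloB depletion all 2173 domains did (interval 99.8% to 100%), against 99% of all regions. Among the narrower polycomb-free regions the shares were 94.0% and 98.4%. Broad polycomb-bound regions were like the domains, with 99.9% and 100%. These intervals cover the counting of regions only, since each knock-down had 1 H3K4me3 list and no test between conditions was possible.

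The 2 domains with no peak after EPOP depletion, named after their values were seen, were weak in 1 control list as well. At chr1:77448362-77452489 the summed width was 1374 and 3959 bp in the controls, with highest scores of 105 and 334, and 4160 bp after EloB depletion. The score is the authors' own value for a peak, without a stated definition. At chr2:172401834-172406358 the widths were 1067 and 4525 bp in the controls and 1733 bp after EloB depletion. By contrast, the highest score reached 3100, the value at which many scores stop, at 74.8% and 82.8% of domains in the controls, and at 72.6% and 84.2% after depletion of EPOP and EloB.

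Breadth itself was less even between lists than presence. The median summed width over the domains was 4655 and 5272 bp in control replicates 1 and 2, 5087 bp after EPOP depletion and 5613 bp after EloB depletion. The EPOP knock-down value lay between those of the control lists, and the EloB knock-down value lay above both. Taken alone, replicate 1 reached 4000 bp at 1528 domains (70.3%) and replicate 2 at 2125 (97.8%). EPOP knock-down reached it at 1811 domains (83.3%), against 9.38% of all regions, and EloB knock-down at 2059 (94.8%), against 13.1%. Broad polycomb-bound regions, chosen for the same width, reached it at 81.9% and 94.2%, so this was not particular to the domains. The domains had been chosen for this width in the control lists, so no test is drawn from these shares.

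**Figure D2:**
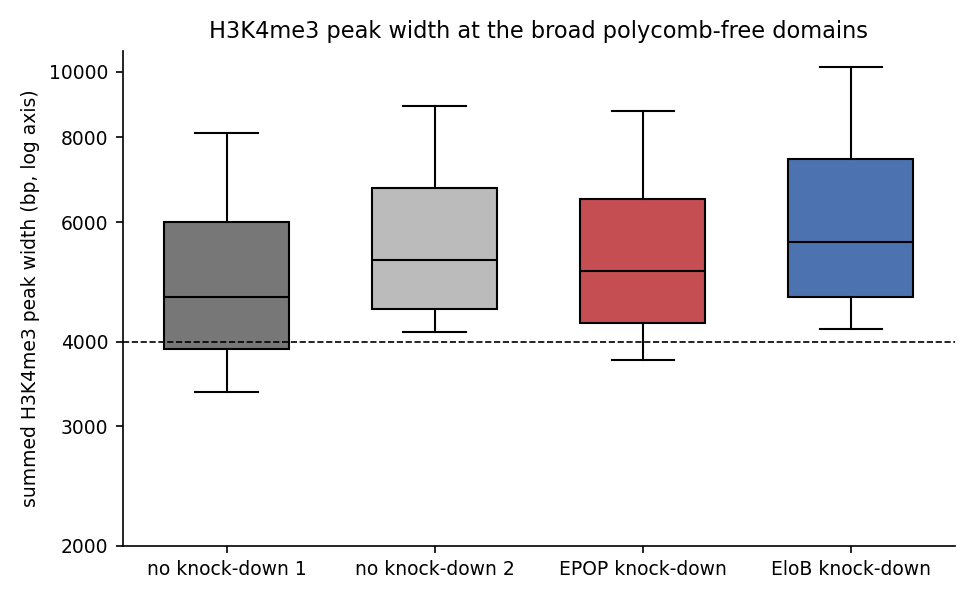
Summed H3K4me3 peak width at the domains in each list (bp, log axis): line, median; box, quartiles; whiskers, 10th and 90th percentiles; dashed line, 4000 bp. The medians are 4655, 5272, 5087 and 5613 bp from left to right.

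Domains that were broad in both control lists stayed broad. There were 1509 of these (69.4%), and 97.0% of them reached 4000 bp in both knock-down lists. A further 616 domains (28.3%) were broad in replicate 2 alone, and 48.1% of these were broad in both knock-down lists. Of the 762 domains of 6000 bp or wider, 754 were broad in both knock-down lists. The reverse also occurred: of 2164 polycomb-free regions from 3000 bp to just below 4000 bp, 144 (6.65%) reached 4000 bp after EPOP depletion and 407 (18.8%) after EloB depletion.

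Against the difference between the control lists, the domains' width ratios were small after EPOP depletion and of similar size after EloB depletion. The median log2 ratio of EPOP knock-down width to the mean of both control lists was 0.02. Against replicate 1 it was 0.08 and against replicate 2 it was -0.04, so the direction depended on the list used. The median log2 ratio of EloB knock-down width was 0.12 against the mean, 0.20 against replicate 1 and 0.04 against replicate 2. Replicate 2 itself stood at 0.15 above replicate 1. Over all H3K4me3 regions the EPOP ratios were 0.02 against the mean, 0.11 against replicate 1 and -0.05 against replicate 2. The EloB ratios over all regions were 0.14, 0.22 and 0.05, close to the values at the domains.

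The file headers name replicate 1 for the hairpin method and replicate 2 for the small interfering RNA method. With each knock-down set against the list of its own method, the median log2 ratio was 0.08 after EPOP depletion and 0.04 after EloB depletion. Domains chosen from replicate 2 alone (2087 regions) had an EPOP knock-down ratio of 0.08 to replicate 1, which that choice did not use. Domains chosen from replicate 1 alone (1361 regions) had a ratio of -0.04 to replicate 2. For EloB knock-down these values against the unused list were 0.21 and 0.03.

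**Figure D3:**
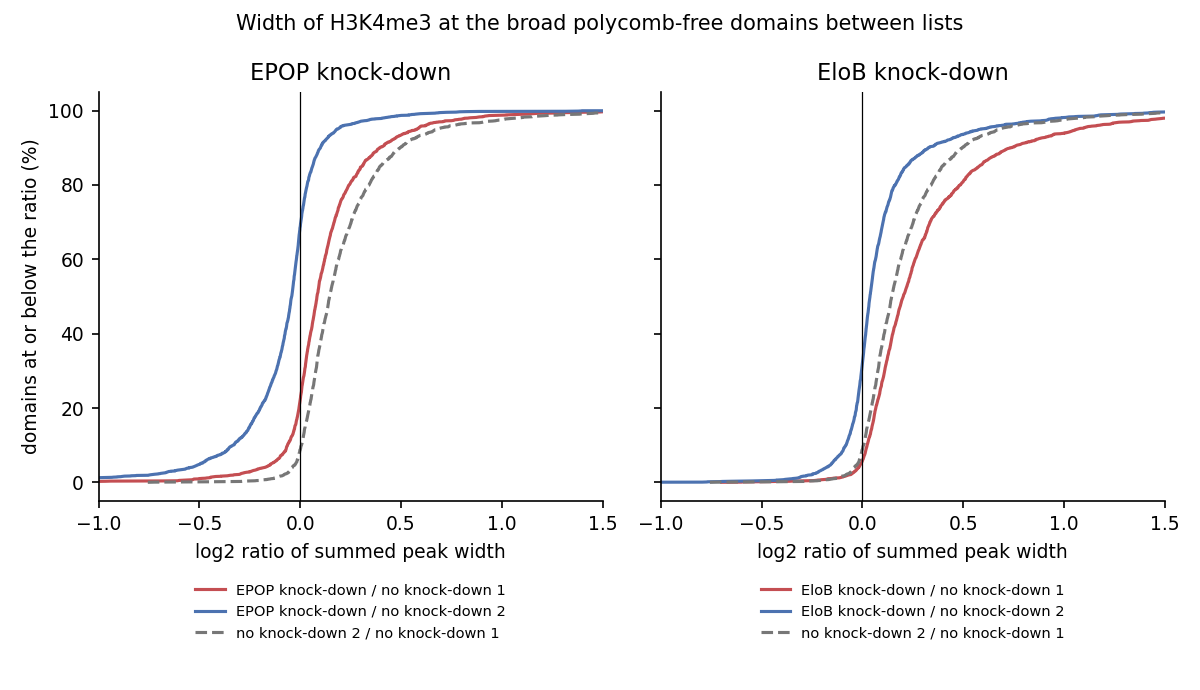
Cumulative share of domains (%) by log2 ratio of summed H3K4me3 width, for each knock-down against each control list (solid lines) and between the control lists (dashed line). Solid lines of 1 panel lie apart by about as much as the dashed line lies from 0: its median is 0.15.

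Domains called wider were mostly domains joined to a neighbour. A domain was called wider or narrower where its summed width differed by at least 1.5-fold, in the same direction, from both control lists. After EPOP depletion 18 domains (0.828%) were wider and 10 (0.460%) narrower, against 1.65% and 0.474% of all regions. After EloB depletion 109 (5.02%) were wider and 1 narrower, against 5.59% and 0.133% of all regions. None of these shares lay above those of all regions. Among broad polycomb-bound regions 0.366% were wider and 0.0916% narrower after EPOP depletion, and 3.48% and 0% after EloB depletion. The shares of the domains lay above those of this class in each case. With 1 control list left out, domains were chosen anew from the other list, and the call used that same list alone. These shares are therefore a description. Without replicate 2 (1361 domains), 95 (6.98%) were wider after EPOP depletion and 242 (17.8%) after EloB depletion. Over all regions with a peak in both lists these shares were 10.5% and 22.4%. Without replicate 1 (2087 domains), 71 (3.41%) were narrower after EPOP depletion, against 4.12%. In 17 of the 18 domains, and in 103 of the 109, a knock-down peak also covered another H3K4me3 region. Over all wider regions this held for 292 of 532 (54.9%) and 976 of 1804 (54.1%), and for 4 of 4 and 34 of 38 (89.5%) of the wider broad polycomb-bound regions. The gap to the nearest such neighbour had a median of 90 bp after EPOP depletion and 167 bp after EloB depletion.

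When widths were summed in every list over the whole joined stretch, 0 domains were at least 1.5-fold wider after EPOP depletion and 1 after EloB depletion. Over all regions these shares were 0.533% and 1.87%, and over broad polycomb-bound regions 0% and 0.183%. The narrower domains numbered 10 and 1 over the joined stretch, against 0.474% and 0.133% of all regions. Joining after EPOP depletion concerned 60 domains (2.76%), and after EloB depletion 195 domains (8.97%), against 1.47% and 3.82% of all regions. Of the broad polycomb-bound regions 1.65% and 5.95% were joined.

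Single domains show both cases. The domain with the largest ratio to both control lists, ranked by the smaller of its ratios, was chr2:180426352-180430389, with 3051 and 3752 bp in the controls, 21281 bp after EPOP depletion and 21371 bp after EloB depletion. A narrower polycomb-free region 1821 bp away was joined to it in the knock-down lists. So was a broad polycomb-bound region at 8137 to 21652 bp from the domain's first base. That region made up most of the joined stretch. Over the joined stretch the widths were 18808 and 20410 bp in the controls and 21281 bp after EPOP depletion, so the lists were alike once the neighbours were included. At chr9:114442720-114448503 the widths were 5185 and 5676 bp in the controls and 14137 and 16106 bp after depletion of EPOP and EloB. Over the joined stretch they were 16230, 18681 and 18901 bp for replicate 1, replicate 2 and EPOP knock-down. This domain lies 90 bp from another domain of 10219 bp. Of the wider domains, 11 (0.506% of all domains) were so called upon both knock-downs, against 0.917% of all regions.

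The 5 domains narrowest after EPOP depletion relative to the controls differed in their EloB knock-down width. At chr6:53748805-53752984 the widths were 3830 and 4180 bp in the controls and 1490 bp after EPOP depletion, while EloB knock-down stood at 4055 bp. At chr3:32656430-32663644 they were 6719 and 7215 bp in the controls, 3185 bp after EPOP depletion and 7327 bp after EloB depletion. At chr1:13066015-13071462 the control lists differed widely, with 2750 and 5448 bp, and EPOP knock-down stood at 1157 bp. At chr17:53697733-53701827 the widths were 3181 and 4035 bp in the controls, 1490 bp after EPOP depletion and 4315 bp after EloB depletion. The ranking placed EPOP knock-down below both controls, so that order is no finding. In these 4 domains EloB knock-down lay within or above the range of the control lists. That was the usual case, as only 1 of all domains was called narrower after EloB depletion. The highest scores of these 4 domains after EPOP depletion were low, from 121 to 528. At chr16:89863621-89868349 both knock-downs lay below the controls, with 4520 and 4700 bp in the controls, 2069 bp after EPOP depletion and 3550 bp after EloB depletion. No domain was called narrower upon both knock-downs, against 0.0124% of all regions.

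Splitting of domains into several peaks was more frequent in the lists that the headers name for the hairpin method. Without knock-down, 611 domains (28.1%) were covered by at least 2 peaks in replicate 1, and 132 (6.07%) in replicate 2. After EPOP depletion 569 domains (26.2%) were split, and after EloB depletion 306 (14.1%). The hairpin lists were thus the more split ones with and without EPOP knock-down. Within the small interfering RNA method, splitting was higher after EloB depletion than in the control. The hairpin lists were also the shorter ones, with 35027 and 39967 peaks, against 42857 and 47296. Whether method, list length or read depth accounts for the splitting was not tested. Outer edges of the domains differed by a median of 184 bp between the control lists, and 78.1% of edges lay within 500 bp. Edges after EPOP depletion differed from the same lists by medians of 132 and 137 bp, which is less. Edges after EloB depletion differed by 251 bp from replicate 1 and by 128 bp from replicate 2.

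EloB peaks were rare at the domains, yet many of them were still called after EPOP depletion. EloB lists took no part in choosing the domains. Without knock-down 49 domains (2.25%) and 22 domains (1.01%) held an EloB peak in replicates 1 and 2, against 3.46% and 4.12% of all H3K4me3 regions and 0.429% and 0.189% of all polycomb-free regions. After EPOP depletion 42 (1.93%) and 11 (0.506%) did, against 0.282% and 0.124% of all regions and 0.349% and 0.099% of polycomb-free regions. The mean share was 1.63% ± 0.879 in the controls and 1.22% ± 1.01 after EPOP depletion (SD, n = 2 each). These SDs include the difference between the antibodies, since each replicate number had its own. The mean difference was -0.414 percentage points (two-sided exact permutation test, p = 0.667, where 2 lists against 2 cannot go below 0.33). Within each antibody the share was lower after EPOP depletion, with a difference of -0.322 percentage points in replicate 1 and -0.506 in replicate 2 (exact permutation test within pairs, p = 0.5, the smallest that 2 pairs allow).

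Leaving out 1 list sets different antibodies against each other. The difference was then 0.207 percentage points without replicate 1 of the control lists, and 0.299 without replicate 2 of the knock-down lists. It was -1.04 without replicate 2 of the control lists and -1.13 without replicate 1 of the knock-down lists. The EloB lists held 1296 and 1542 peaks in the controls and 164 and 127 after EPOP depletion. Peaks at the domains made up 4.32% and 1.56% of the control lists, and 28.0% (Wilson interval 21.7% to 35.4%) and 9.45% (5.49% to 15.8%) of the knock-down lists. Peaks at narrower polycomb-bound regions made up 71.2% and 76.5% of the control lists, and 8.54% and 13.4% of the knock-down lists.

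Broad polycomb-bound regions differed from the domains in this respect. EloB peaks lay at 116 (10.6%) and 149 (13.6%) of the 1092 bound regions in the controls, and at 3 (0.275%) and 2 (0.183%) after EPOP depletion. That is the full separation that 2 lists against 2 allow (exact permutation test, p = 0.33). Of the domains with an EloB peak in replicate 1, 37 of 49 (75.5%, Wilson interval 61.9% to 85.4%) still held one in replicate 1 after EPOP depletion, against 3 of 116 bound regions (2.59%, interval 0.883% to 7.33%). In replicate 2 it was 11 of 22 domains (50.0%, 30.7% to 69.3%) against 2 of 149 bound regions (1.34%, 0.369% to 4.76%). The narrower polycomb-free regions kept 27 of 42 (64.3%) and 7 of 18 (38.9%), so EloB peaks were also kept at polycomb-free regions that were not broad. The IgG sample was not analysed here, so whether these peaks depended on the antibody's target was not tested.

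**Figure D4:**
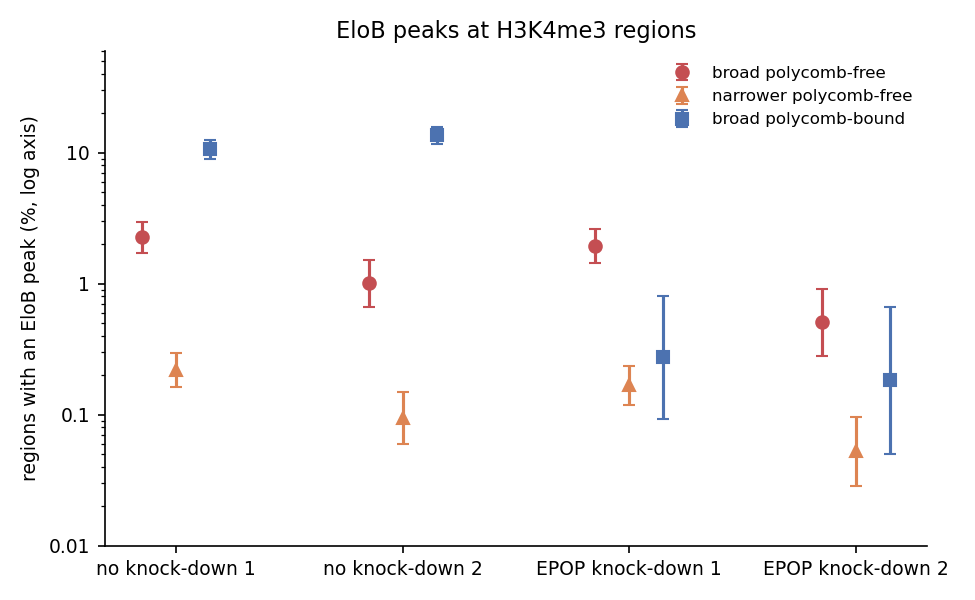
Share of regions with an EloB peak (%, log axis) in each EloB list, for 3 classes of H3K4me3 regions, with Wilson 95% intervals. Broad polycomb-bound regions go from 10.6% and 13.6% to 0.275% and 0.183%, while the domains stand at 2.25%, 1.01%, 1.93% and 0.506%.

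Part of the domains with EloB recurred between lists. Of the 22 domains in control replicate 2, 21 (95.5%) were also in replicate 1, and of the 49 in replicate 1, 21 (42.9%) were in replicate 2. Over all H3K4me3 regions these shares were 66.2% and 78.8%. Over the 4 lists 54 domains held an EloB peak at least once, 14 in 1 list only and 11 in every list. The highest scores were at chr9:78324451-78331536, with 1927 and 524 in control replicates 1 and 2 and 931 and 242 after EPOP depletion. Next came chr17:45704631-45712362, with 654 and 270 in the controls. After EPOP depletion it had 584 in replicate 1 and no EloB peak in replicate 2. At chr15:79372850-79378629 they were 606 and 391 in the controls and 726 and 415 after EPOP depletion. At chr2:49305698-49309949 they were 481 and 319 in the controls and 538 and 172 after EPOP depletion. Scores of the chr9 domain were lower after EPOP depletion in both replicates, and those of the chr15 domain were higher in both. The chr2 domain went in opposite directions, and the chr17 domain lost its peak in replicate 2. Scores of different lists are not shown to be on 1 scale, so these values are a description.

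EloB peaks were more frequent in wider polycomb-free regions, also within the domains. In control replicate 1 the share of regions with an EloB peak was 0.394% from 2000 bp to below 4000 bp, 0.661% up to 5000 bp, 2.39% up to 6000 bp and 3.85% up to 8000 bp. It was 4.13% from there to 12000 bp and 5.06% from 12000 bp, a class of 79 domains, 4 of which held an EloB peak. A wider region has more length in which to overlap a peak. Per Mb of region the values were 1.41, 1.49, 4.37, 5.64, 4.40 and 3.14 in the same order, so the rise from the domains below 5000 bp to those of 6000 to 8000 bp exceeded the gain in length and the widest classes were lower again. In replicate 2 the values per Mb were 0.678, 0.993, 1.46, 2.99, 1.32 and 1.57. Over all domains they were 3.67 and 1.65 per Mb, against 1.29 and 0.552 in narrower polycomb-free regions.

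**Figure D5:**
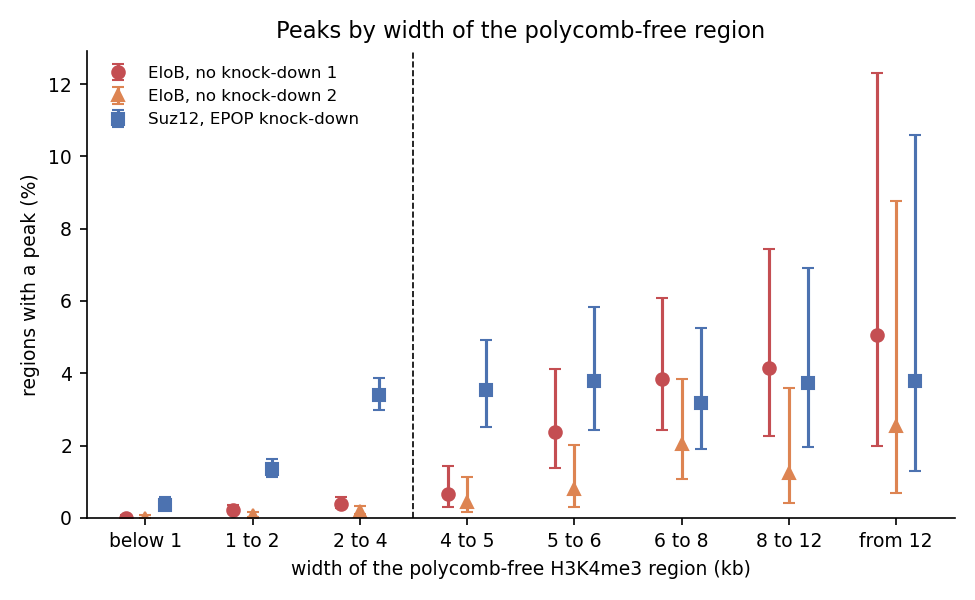
Share of polycomb-free H3K4me3 regions with a peak (%), by width of the region in kb, for the EloB control lists and for Suz12 after EPOP depletion, with Wilson 95% intervals; classes right of the dashed line are the domains. EloB in replicate 1 goes from 0.661% at 4 to 5 kb to 5.06% from 12 kb, while Suz12 stays between 3.17% and 3.80% from 4 kb on.

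EloB peaks at the domains lay near the centre at a lower share than in bound regions, without a test. Of the 56 EloB peaks at domains in control replicate 1, 7 had their own centre outside the domain, as did 4 of 24 in replicate 2. Of the other 49 and 20 peaks, 55.1% and 55% had it nearer to the domain's centre than to an edge. In broad polycomb-bound regions the shares of the 142 and 190 such peaks were 79.6% and 71.1%.

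PRC2 peaks appeared at few domains in the knock-down lists, and with low scores. After EPOP depletion Suz12 had a peak at 77 domains (3.54%, Wilson interval 2.84% to 4.41%), against 1.97% of all polycomb-free regions. After EloB depletion it had a peak at 5 (0.230%), against 0.66%. Jarid2 after EPOP depletion had a peak at 23 domains (1.06%, 0.706% to 1.58%), against 0.16%. H3K27me3 after EPOP depletion had none, which allows a share of up to 0.138%, against 0.476%. Neither list of EPOP ChIP after EPOP depletion had a peak at a domain, against 0.0189% and 0.0377%. With only the higher-scoring part of each list, which gave another set of 2666 domains, the shares with Suz12 and Jarid2 after EPOP depletion were 0.113% and 0.0375%. The median score of the Suz12 peaks after EPOP depletion was 64.7 at the domains and 273 at broad polycomb-bound regions, and that of Jarid2 was 59.1 against 372. At narrower polycomb-free regions these medians were 65.6 and 62.9, so low scores were not particular to the domains. Per Mb, Suz12 after EPOP depletion had 5.77 marked domains, against 10.4 marked regions among the narrower polycomb-free ones, and Jarid2 had 1.72 against 0.337.

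Domains hold no Suz12, Jarid2 or H3K27me3 peak in the controls by construction, so those shares do not measure a gain. Broad regions were therefore also chosen without the lists of the target counted. Among 2228 broad regions free of the other targets, Suz12 had a peak at 12 (0.539%) and 47 (2.11%) in control replicates 1 and 2, against 0.921% and 1.79% of all regions chosen in this way. After EPOP depletion it had a peak at 102 (4.58%), against 2.97%, and after EloB depletion at 16 (0.718%), against 1.57%. The EPOP knock-down list was the highest of the 4, and no test was possible with 1 list. Per the file headers replicate 2 is the hairpin list and replicate 1 the small interfering RNA list, so each knock-down lay above the list of its own method. For EloB the Wilson intervals were 0.443% to 1.16% against 0.308% to 0.939%. Such intervals cover counting of regions only and do not compare conditions, for either knock-down. Narrower regions showed the same order between methods, with 1.75% against 2.79% for the hairpin lists and 0.964% against 1.67% for the small interfering RNA lists.

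Jarid2, an accessory PRC2 subunit, was more frequent at broad than at narrower regions in both conditions. Among 2203 broad regions free of the other targets it had a peak at 30 (1.36%, Wilson interval 0.956% to 1.94%) in the controls and at 45 (2.04%, 1.53% to 2.72%) after EPOP depletion. Among narrower regions the shares were 0.0630% and 0.0787%, and among all regions so chosen they were 0.198% and 0.282%. The whole Jarid2 list was also longer after EPOP depletion, with 3665 peaks against 2641. The Wilson intervals cover counting of regions only, and without replicates no test between conditions was possible. For H3K27me3 the 2178 broad regions so chosen had 5 peaks in the controls and 1 after EPOP depletion, against 1.21% and 0.685% of all regions.

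Suz12 and Jarid2 peaks shared few domains. Of the 77 domains with Suz12 and the 23 with Jarid2 after EPOP depletion, 3 held both. Jarid2 was thus at 3.90% of the domains with Suz12, against 1.06% of all domains. Suz12 was at 13.0% of the domains with Jarid2, against 3.54% of all domains. Both shares lay above those over all domains, but rest on 3 domains. Among narrower polycomb-free regions 1 held both, or 0.294% of the 340 with Suz12 and 9.09% of the 11 with Jarid2. At broad polycomb-bound regions, which polycomb peaks had chosen, 275 held both, or 44.7% of those with Suz12 and 89.3% of those with Jarid2. None of the 77 domains with Suz12 was among the 50 with an EloB peak in either control list, where 3.54% of all domains held Suz12. Among narrower polycomb-free regions 2 of the 44 with EloB held Suz12, and among broad polycomb-bound regions 157 of 162. The highest Suz12 scores after EPOP depletion were 196 at chr13:17892762-17898529 and 192 at chr9:94435298-94441286. At chr1:193217858-193222415 Suz12 was called upon both knock-downs, with scores of 145 and 79.5, and 3 of the 5 domains with Suz12 after EloB depletion also had it after EPOP depletion. The highest Jarid2 score was 140, at chr1:88420117-88426683, and no Suz12 peak was called there.

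Most domains lay far from polycomb peaks and near other H3K4me3 regions. The median distance to the nearest polycomb peak of the 6 lists was 39372 bp, close to the 38119 bp of narrower polycomb-free regions, and 325 domains (15.0%) had one within 10000 bp. Domains with Suz12 after EPOP depletion had a median distance of 58920 bp, against 38465 bp for the other domains, and 9 of them (11.7%) had one within 10000 bp. For the domains with Jarid2 after EPOP depletion the median was lower, 23195 bp against 39798 bp, as for those with EloB in either control list, 30548 bp against 39558 bp. The nearest other H3K4me3 region was at a median of 4546 bp, against 8567 bp for narrower polycomb-free regions and 6900 bp for broad polycomb-bound ones. Chromosome 11 held the most domains, 209, or 8.30% of its H3K4me3 regions, and chromosome 13 had the lowest share of the autosomes, 5.53%. The X chromosome had 50 domains, 6.59% of its regions, while 1.32% of its regions were broad and polycomb-bound.

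The exclusion by polycomb rested largely on 1 list. Of the 3265 broad regions, 1092 held a polycomb peak, and 991 of these (90.8%) held one of EPOP replicate 1, the longest of the 6 lists. For 415 regions (38.0% of those excluded) it was the only list with a peak, with a median score of 72.02, and without this list the rule gave 2588 domains. EPOP replicate 2 alone excluded none, and 205 regions had a peak in all 6 lists.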

How the data were processed

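Each list gives a chromosome, start, end and score per peak. The deposited score is the authors' value, of undefined scale, at least 50 in every list. Bowtie, TopHat, Cufflinks and mm9 come from the submitters' processing notes, without roles. Peak names carry MACS, per the file headers. The other positions are deposited mm9 coordinates, printed counted from 1. Read depth is unknown. No file of the IgG sample or of the 9 RNA samples was used here. Lists of genes and of cell type markers set in the design were not run, since the reference tables are of another build.

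Overlap meant at least 1 bp, and a peak was counted in full at each region it touched. Wilson 95% intervals cover counting of regions only, and a count of 0 allows 3. EloB shares were compared by a two-sided exact permutation test over lists. Domains, comparisons and the rule for named regions (widest, highest scores, nearest the threshold, largest width ratios, strongest EloB and PRC2 peaks) were chosen with earlier results of these data known. Tools were bedtools 2.31.1 and Python 3.11.15 with SciPy 1.17.1, NumPy 2.4.6 and Matplotlib 3.10.9, and the code was tested on simulated data.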

Additional observations from a re-analysis of the deposited data

How the results depend on the processing

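Of 213 values from 28 alternative settings for 17 results, 158 stayed within the range set for them, 50 moved and 5 reversed. The range was 1.5 times a count, the Wilson interval of a share, or the SD between replicates. For width ratios the SD was between the ratios to the 2 control lists. The EloB difference counted as unchanged where its sign held. Restriction to autosomes and X could change no value, since all domains lie there. Leaving out EPOP replicate 2 could not change the domains, as it alone excluded none. The settings with a held-out list, the joined stretch, the 2-fold limit and exclusion without the target's own lists were chosen after seeing the data. Counts of wider or narrower domains given below without a share over all regions describe the domains alone. They are not compared with a background.

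At a width threshold of 3000 bp there were 4337 domains of median 4004 bp, with 36 wider and 34 narrower after EPOP depletion, 232 wider and 5 narrower after EloB depletion, and Jarid2 at 0.646%. At 5000 bp there were 1265 of median 6408 bp, 100% with H3K4me3 after EPOP depletion, with 10 wider and 4 narrower, and 56 and 0 after EloB depletion. In the higher-scoring part of each list 99.1% held H3K4me3 after EPOP depletion and 39 were narrower, and Suz12 and Jarid2 stood at 0.113% and 0.0375%. With overlap of at least 0.5 of the shorter interval 11 domains were wider after EPOP depletion, and with H3K4me3 lists of equal length 21 were narrower.

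Against the list of the same method 105 were wider after EPOP depletion and 8 narrower after EloB depletion. With widths as spans 2 were narrower after EloB depletion, and with peaks clipped to the domain 0 were wider upon either. Over the joined stretch 0 and 1 were wider. At 2-fold, 4 were wider and 6 narrower after EPOP depletion, and 39 and 0 after EloB depletion. Against held-out replicate 1, 105 (5.04%) were wider after EPOP depletion, and 318 (15.3%) wider and 2 narrower after EloB depletion, against 6.87%, 17.1% and 0.6% of all regions with a peak in both lists. Against held-out replicate 2 the EPOP ratio was -0.0368, with 10 wider and 93 (6.83%) narrower, and 46 (3.38%) wider and 9 narrower after EloB depletion, against 2.05%, 7.62%, 6.08% and 1.95%. With the target's own lists not used to exclude, Suz12 stood at 4.58% and 0.718% after depletion of EPOP and EloB, and Jarid2 at 2.04%.

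Leaving out 1 list gave 1361 (without H3K4me3 replicate 2) to 2588 domains (without EPOP replicate 1). Median widths were 5136 to 5299 bp, and 99.9% to 100% held H3K4me3 after EPOP depletion. With an H3K4me3 control list left out, ratios were to the other list, which alone had chosen the domains. Median log2 width ratios were -0.0416 to 0.0659 after EPOP depletion and 0.04 to 0.17 after EloB depletion. After EPOP depletion 25 to 95 (1.20% to 6.98%) were wider and 2 to 71 (0.147% to 3.41%) narrower. Over all regions with a peak in both lists these shares were 4.22% to 10.5% and 0.573% to 4.12%. After EloB depletion 128 to 242 (6.13% to 17.8%) were wider and 2 to 7 (0.147% to 0.335%) narrower. Over all such regions the shares were 10.1% to 22.4% and 0.312% to 0.930%. EloB mean shares were 1.01% to 2.25% without and 0.506% to 1.93% upon knock-down, and their difference was -1.13 to 0.299 percentage points. With EloB lists cut by score to equal length the share in the controls was 0.299% and the difference 0.805, the reverse of the main result. The cut shortens mainly the control lists, and the uncut lists differ in length, so neither comparison settles the direction. With the replicate number as a block (replicate block, the same antibody in both lists of a number) the difference was -0.414, the same as without it (exact permutation test, p = 0.5), and changed no call. The unknown depth limits every absence of a peak. The cause of these changes was not tested.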
